A study of Mus musculus with 4 samples.

Results

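Cells of the mouse nasal mucosa with the transcripts of classical monocytes were picked cell by cell from their counts of unique molecular identifiers (UMIs, each tagging 1 captured transcript), and 596 cells met the rule among 72320 cells that passed the quality filter in 4 single-cell libraries. A cell counted as a Vcan and F13a1 cell when the UMIs of those genes together gave at least 3 UMIs and Ly6c2 and Ccr2 together at least 1. It also had to stay under 2 UMIs of Ace and Adgre4 (nonclassical monocytes), under 3 of Mpo, Elane and Prtn3 (myeloid progenitors) and under 2 of C1qa, C1qb and C1qc (resident macrophages), with none of Cd3e, Cd79a, Cxcr2 or Siglech. The 16 genes of the rule chose the cells, so their levels are descriptions and were left out of every count of genes below.

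All libraries held CD45+ cells, that is leukocytes, from the nasal mucosa of 8-week-old C57BL/6 mice, and each of the 4 groups (Vehicle and Ribavirin, without and with OVA) was 1 library. Allergic rhinitis was modelled with ovalbumin (OVA) as allergen, and ribavirin is a broad antiviral nucleoside analogue given here as a nasal treatment. The sample labels name magnetic sorting and the series text names flow sorting, and neither states how many mice went into a library. With 1 library per group there is no replicate error, so no test was made: the intervals printed are 95% intervals for counting error only, and condition, mouse and library cannot be told apart.

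Classical monocytes leave the bone marrow through the receptor CCR2, carry the surface protein Ly6C and can turn into nonclassical monocytes, macrophages or dendritic cell-like cells once they are in blood or tissue. Vcan encodes versican, a large chondroitin sulfate proteoglycan, and F13a1 encodes the A chain of coagulation factor XIII, which cross-links fibrin and matrix proteins. Both are strongly transcribed in classical monocytes. In allergic tissue, monocyte-derived cells exposed to IL-4 and IL-13 are known to switch on Arg1, Chil3 and Ccl24.

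The Vehicle library gave 182 Vcan and F13a1 cells, Vehicle-OVA 144, Ribavirin 213 and Ribavirin-OVA 57, of 25727, 17498, 20278 and 8817 passing cells. Their share was 0.707% in Vehicle (0.609 to 0.818, exact binomial interval), 0.823% in Vehicle-OVA (0.694 to 0.968), 1.05% in Ribavirin (0.915 to 1.20) and 0.646% in Ribavirin-OVA (0.490 to 0.837). The Ribavirin share was the highest, but its interval overlapped that of Vehicle-OVA, and the intervals of the other 3 libraries overlapped one another. On the log2 scale the share differed by 0.22 between Vehicle-OVA and Vehicle (−0.11 to 0.54) and by −0.70 between Ribavirin-OVA and Ribavirin (−1.15 to −0.27). Ribavirin over Vehicle gave 0.57 (0.28 to 0.86) and Ribavirin-OVA over Vehicle-OVA −0.35 (−0.82 to 0.10). These orders depended on how the cells were counted. With gated neutrophils left out of the denominator the shares were 0.960%, 1.76%, 1.52% and 0.890%. With every cell thinned to 2000 UMIs before the rule was applied they were 0.360%, 0.680%, 0.420% and 0.820%, which put both OVA libraries above their own comparators. Without 2 groups of cells led by markers of other types, described below, the log2 ratios were −0.94 for OVA under vehicle and −0.84 under ribavirin.

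**Figure D1:**
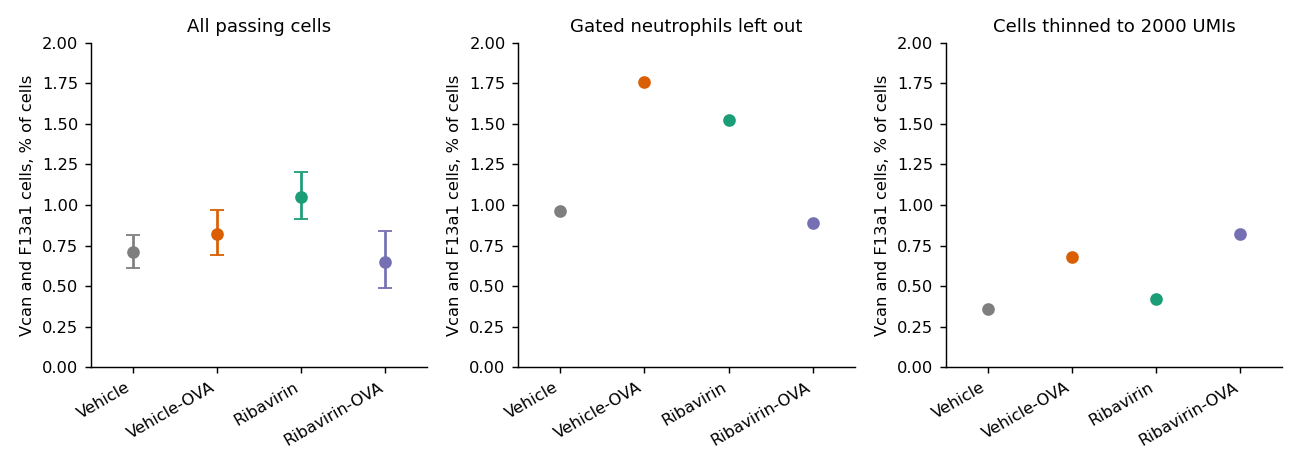
Vcan and F13a1 cells as a percentage of cells in each library, of all passing cells with exact binomial 95% intervals (left), with gated neutrophils left out (middle) and with cells thinned to 2000 UMIs (right); all axes start at 0 and 1 point is 1 library. Ribavirin is highest at 1.05% on the left, Vehicle-OVA at 1.76% in the middle and Ribavirin-OVA at 0.820% on the right.

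Depth differed among the cells themselves, with a median of 6964 UMIs per Vcan and F13a1 cell in Vehicle, 10487.5 in Vehicle-OVA, 7787 in Ribavirin and 9945 in Ribavirin-OVA. The rule is a count threshold, so deeper cells pass it more easily: 38, 15, 52 and 10 cells sat just inside it at 3 UMIs of Vcan and F13a1, and 79, 29, 65 and 10 otherwise eligible cells sat just outside at 2. Library pairs shared 57 to 174 barcodes, and no barcode was shared between 2 Vcan and F13a1 cells. Of these cells, 3, 4, 3 and 1 carried a barcode that also occurs in another library, for the pairs of Vehicle with Vehicle-OVA, Ribavirin and Ribavirin-OVA and of Vehicle-OVA with Ribavirin. Marker lists of other cell types were read in the same cells. The 9 T cell markers summed to between 21.5 and 109 CPM (UMIs scaled to a common total for each library's cells). Of these, Il7r had 15 UMIs in Vehicle, 169 in Vehicle-OVA, 33 in Ribavirin and 3 in Ribavirin-OVA. Cd3g had 6, 0, 48 and 1 in that order. The B cell genes Ms4a1 and Pax5 had at most 1 UMI each in any library. Other genes of the B and plasma cell list had more: Jchain 236, 95, 250 and 66, Sdc1 12, 290, 29 and 32, and Xbp1 333, 750, 417 and 292. Over the 4 libraries the full B and plasma cell list summed to between 426 and 720.3 CPM, natural killer markers to between 1.79 and 54.7, dendritic cell markers to between 237 and 488, mast cell and basophil markers to between 16.1 and 83.9, non-leukocyte markers to between 17.3 and 154, and myeloid progenitor markers to between 2071 and 3553. Most of the progenitor sum was Srgn, at 3721, 5278, 5435 and 936 UMIs in the same library order. The progenitor genes Ctsg, Ms4a3, Cd34, Kit, Myb and Gfi1 had at most 9 UMIs each in any library. Most of the dendritic sum was Bst2, a gene also in the interferon response list, at 411, 412, 519 and 86 UMIs. Of the natural killer markers, Gzma had 6, 0, 39 and 0 UMIs. The 18 neutrophil markers summed to 1720 CPM in Vehicle, 9447 in Vehicle-OVA, 2182 in Ribavirin and 1663 in Ribavirin-OVA, with the defining neutrophil gene Ly6g at 0, 1, 2 and 0 UMIs. The 14 macrophage markers summed to 172, 6050, 241 and 955 CPM, with the resident macrophage gene Lyve1 at 0, 0, 0 and 1 UMIs. The neutrophil list holds Cxcl2, S100a8, S100a9 and Mmp8 and the macrophage list Arg1, Ccl24 and Mrc1, which are described below in their own right. Unlike Ly6g and Lyve1, other listed genes were clearly highest in Vehicle-OVA. In the same library order, Retnlg had 4, 198, 22 and 8 UMIs, Ngp 5, 179, 10 and 10, and Ltf 14, 175, 51 and 49. G0s2 had 23, 399, 54 and 6 UMIs, and the macrophage gene Mertk 13, 97, 11 and 6. Both lists were thus highest in Vehicle-OVA, and their part in the results below was not tested except by the counts without such cells that are given there.

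The label of classical monocyte did not hold for all 596 cells. A clustering of them gave 5 groups. Group 4 (93 cells) had 3 macrophage markers, Ccl24, Arg1 and Mrc1, among its 10 leading genes, which also include Spp1, Slc7a2 and Cxcl3. No classical monocyte marker outside the rule was among the 10 leading genes of any of the 5 groups. In group 4 the Ly6c2 level was 442 CPM and the Vcan level 192, beside 2225, 2126 and 1963 CPM of Ly6c2 in groups 1 to 3. Plac8 (1710.5 CPM) and Lyz2 (2926) were also lower in group 4 than in groups 1 to 3. Csf1r (734 CPM, beside 633, 491 and 403) and Cd14 (2211, beside 1083, 933 and 475) were higher. Group 5 (51 cells) had 2 dendritic cell markers, Cd209a and Flt3, among its leading genes, with Vcan at 46.1 CPM. The cells are therefore called by their rule, Vcan and F13a1 cells, and groups 4 and 5 are given no name.

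The libraries also fell into different groups. Groups 1 and 2 held 89.0% of Vehicle and 85.0% of Ribavirin cells but 4.86% and 8.77% of the cells of Vehicle-OVA and Ribavirin-OVA. Groups 3 and 4 held 91.7% and 87.7% of the cells of Vehicle-OVA and Ribavirin-OVA but 1.65% and 2.35% of those of Vehicle and Ribavirin. Group 1 was led by Cxcl9 and Gbp2. Group 2 had Obp1a, Obp1b and Obp2a among its 10 leading genes, and group 3 was led by Bpifa1 and Chil4. The 10 leading genes of group 3 also include the cell division genes Top2a, Ube2c and Stmn1 and the histone genes Hist1h1b and Hist1h2ae. Top2a stood at 141 CPM in group 3 and at 2.35 in the other Vcan and F13a1 cells. Obp1a, Bpifa1 and Chil4 were also found in B cells, as given below, and the part of free RNA in the grouping was not tested. Each OVA difference below is thus one between different groups of cells. A change within one kind of cell, a different mix of cells and a difference in free RNA cannot be told apart. Leaving out groups 4 and 5 kept 452 cells (164, 58, 185 and 45 in the same library order), and results are also given for these remaining cells. Since the groups were built from the same genes, those values are descriptions.

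Monocyte genes outside the rule were abundant alongside the rule's own. The level of a gene is given as CPM of the UMIs summed over a library's Vcan and F13a1 cells, and the libraries are listed in the order Vehicle, Vehicle-OVA, Ribavirin and Ribavirin-OVA throughout. F13a1 stood at 568, 885, 565 and 1154 CPM and Vcan at 380.0, 517, 424 and 498. Ccr2, the chemokine receptor for marrow exit, was at 1610.4, 1515, 1259 and 1403 CPM and so spanned a narrow range. Ly6c2 was at 1926, 913, 2065 and 1863 CPM, with Vehicle-OVA lowest. B cells and T cells, read as the level that free RNA gives, had no UMI of F13a1 or Vcan because those populations were gated without them. Outside the rule, Csf1r, the receptor for the monocyte growth factor CSF-1, stood at 577, 600, 536 and 493 CPM and was found in 86.0% to 95.8% of cells. Plac8, a small protein abundant in Ly6C-high monocytes, stood at 6317, 2101, 5608 and 2428 CPM, and the orphan receptor gene Gpr141 at 284, 182, 278 and 306 CPM. Plac8 was thus lower in both OVA libraries, while Gpr141 was lowest in Vehicle-OVA alone.

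Set against nonclassical monocytes, gated on Ace and Adgre4, the Vcan and F13a1 cells differed by at least 2-fold in all 4 libraries in 39 genes that were higher (0.528% of 7381 genes with at least 50 UMIs) and 37 that were lower (0.501%). No gene of the nonclassical list was at least 2-fold higher and 5 of its 11 tested genes were lower. Of the 26 tested monocyte identity genes, 5 were higher. Mmp8, which encodes neutrophil collagenase, led the genes that were higher. It stood at 57.9, 232, 65.7 and 168 CPM in Vcan and F13a1 cells and at 4.31, 10.8, 4.89 and 2.91 CPM in nonclassical ones. Fn1, encoding fibronectin, was at 861, 3765, 992 and 3209 CPM against 154, 459, 125 and 123. Mmp19, another secreted metalloproteinase, was at 51.2, 95.5, 73.3 and 86.0 CPM against 10.8, 10.2, 11.2 and 6.31. The Vcan and F13a1 cells were the higher group for these genes in each of the 4 libraries. S100a10, Ms4a8a, Wfdc17, Plcb1, Dmkn and AI839979 were also among the 10 genes with the largest folds. The Ace and Adgre4 gate also held RNA of the airway surface gene Bpifa1 at 21.6, 4738, 6649 and 17165 CPM, and its part in these folds was not tested.

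Against dendritic cells gated on Cd209a and MHC class II, 293 genes (3.97%) were at least 2-fold higher in Vcan and F13a1 cells in all 4 libraries and 97 (1.31%) were lower. The identity list held 19 of 26 genes that were higher, led by Fn1, Chil3, Thbs1, Hp and Lyz2, while 11 of 14 genes of the dendritic-linked list were lower. Haptoglobin, encoded by Hp, illustrates the gap: 968, 381, 847 and 489 CPM in Vcan and F13a1 cells and 9.03, 6.14, 16.8 and 3.09 in the dendritic cells. Against macrophages with at least 10 C1q UMIs, 149 genes (2.02%) were higher and 90 (1.22%) lower. Mmp8, Ifitm6, Plac8, Lsp1, Cd177, Gpr141, S100a4, Nhsl2 and Arhgap26 were among the 10 with the largest folds. Ifitm6, an interferon-induced transmembrane protein gene, stood at 235, 103, 232 and 185 CPM in Vcan and F13a1 cells and at 3.89, 1.23, 3.81 and 1.63 in those macrophages. Of the 19 tested genes of the macrophage differentiation list, none was higher and 10 were lower in the Vcan and F13a1 cells. The more distant populations differed in more genes. Against B cells 1062 genes (14.4%) were higher and 321 (4.35%) lower, against T cells 817 (11.1%) and 348 (4.71%), and against gated neutrophils 537 (7.28%) and 255 (3.45%).

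**Figure D2:**
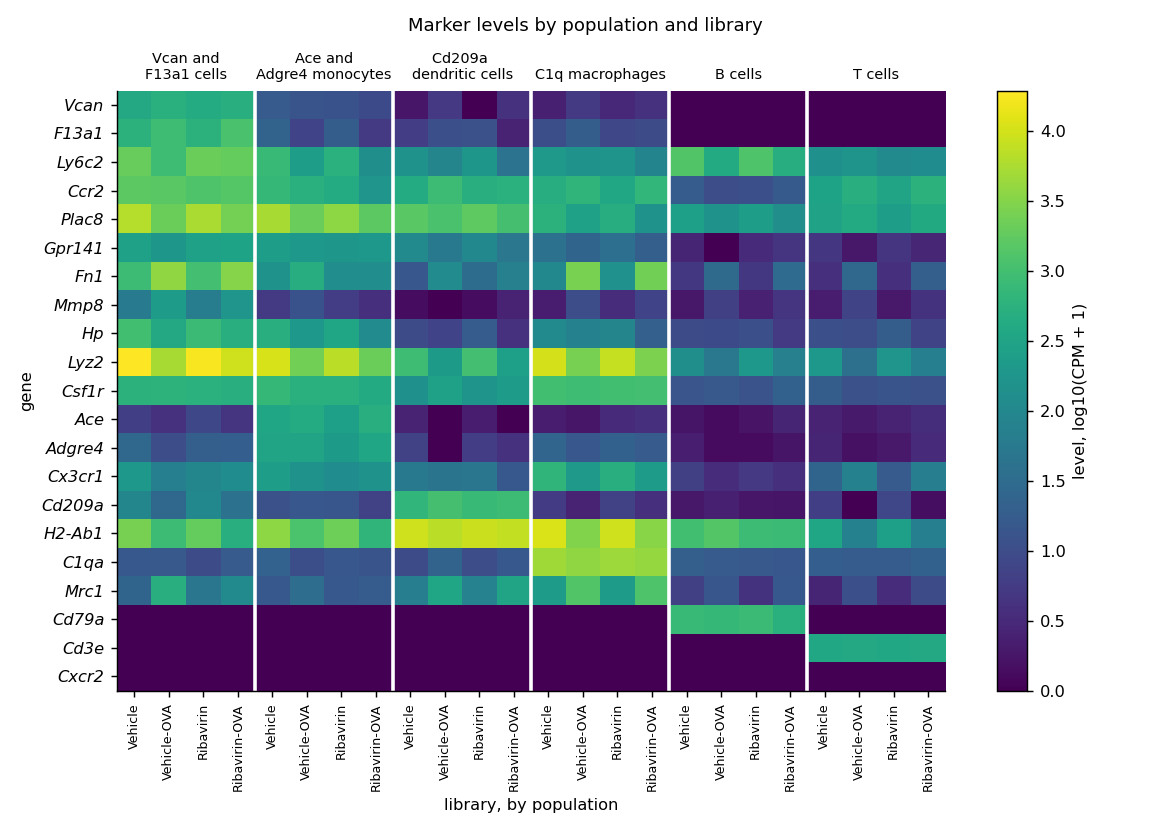
Levels as log10(CPM + 1) of marker genes (rows) in 6 gated populations, with the 4 libraries of each side by side (columns). Vcan and F13a1 are brightest in the Vcan and F13a1 cells, which were gated on them; Mmp8, which the rule did not use, is brighter there than in the Ace and Adgre4 monocytes in all 4 libraries.

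Between libraries, a gene is called here when its level differed by at least 2-fold on the log2(CPM + 5) scale. Of 7381 genes, 784 (10.6%) were higher and 226 (3.06%) lower in Vehicle-OVA than in Vehicle. Between Ribavirin-OVA and Ribavirin, 703 (9.52%) were higher and 267 (3.62%) lower. The median of all genes was itself shifted by 0.23 and 0.28 on the log2 scale, and with that median set to 0 the counts became 455 higher and 440 lower, and 271 higher and 520 lower. The 80 ribosomal protein genes moved with this shift. In the Vcan and F13a1 cells 40 of them were lower under vehicle and 22 under ribavirin and none was higher, and their median log2 ratio was between −1.61 and −0.57 in the 6 other gated populations. Without ribosomal and mitochondrial genes in the total, 597 were higher and 319 lower in the first pair, and 599 higher and 314 lower in the second. The OVA pairs have no library in common. Their log2 ratios correlated with r = 0.44 and rho = 0.49 over genes, a description only because genes share their libraries, and 203 genes were called higher in both, 88 lower in both, and 30 in opposite directions. Of the 203, 56 (27.6%) were also at least 2-fold higher in B cells of both pairs, as were 459 (6.22%) of all genes, and 69 (34.0%) were so in C1q macrophages, as were 255 (3.45%) of all genes. Among the remaining cells 711 were higher and 271 lower of 6446 under vehicle, and 653 higher and 296 lower under ribavirin.

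Fibronectin and the chitinase-like protein Chil3 were higher across most cells of both OVA libraries. Fn1 stood at 861 CPM in Vehicle, 3765 in Vehicle-OVA, 992 in Ribavirin and 3209 in Ribavirin-OVA, with per-cell medians of 419, 3125, 719 and 2776 CPM. That was 4.37-fold higher with OVA under vehicle (4.10 to 4.66) and 3.23-fold under ribavirin (3.03 to 3.46). After thinning to 2000 UMIs, 55.8%, 89.4%, 62.9% and 88.9% of Vcan and F13a1 cells held an Fn1 UMI (78.0%, 96.5%, 85.4% and 96.5% unthinned), where B cells held one in 0.598%, 3.40%, 1.42% and 5.60%. Median depths of those B cells were 8523, 4944.5, 8564 and 12608 UMIs. Chil3, a secreted lectin also known as Ym1, stood at 461, 1862, 839 and 1989 CPM, which is 4.04-fold (3.70 to 4.41) and 2.37-fold (2.19 to 2.56) higher with OVA. Among the remaining cells the log2 ratios were 1.80 and 1.47 for Fn1 and 2.16 and 0.93 for Chil3, so Chil3 fell short of 2-fold under ribavirin there. Both genes were also far higher in the C1q macrophages of the OVA libraries, where Fn1 was at 99.7, 2647, 147 and 2340 CPM. In the nonclassical monocytes Fn1 was at 154, 459, 125 and 123 CPM, with Vehicle-OVA highest.

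Arginase-1, the eosinophil-attracting chemokine CCL24 and osteopontin (Spp1) had the largest differences with OVA under vehicle, in a subset of cells. Under ribavirin the largest were those of Spp1, the chitinase-like gene Chil4 and Ccl24. Chil4 stood at 0, 88.8, 1.74 and 94.96 CPM, beside 0.108, 10.5, 4.31 and 143 in B cells, which held more of it in Ribavirin-OVA. Arg1 stood at 16.6 CPM in Vehicle, 3305 in Vehicle-OVA, 72.7 in Ribavirin and 532 in Ribavirin-OVA. Its log2 ratio was 7.26 under vehicle and 2.79 under ribavirin. In thinned cells the share with an Arg1 UMI was 1.66% (0.343 to 4.77), 49.6% (41.1 to 58.2), 3.29% (1.33 to 6.65) and 22.2% (12.04 to 35.6), beside 0.996%, 6.46%, 0.629% and 4.85% of B cells. Unthinned, the shares in Vcan and F13a1 cells were 1.65%, 56.2%, 4.69% and 24.6%. Both OVA libraries were therefore above their comparators and above the B cells, and in Ribavirin-OVA 5 cells carried 90.2% of the Arg1 UMIs. Ccl24 stood at 0.753, 1977, 9.31 and 134 CPM, the Vehicle value resting on 1 UMI, so its ratio under vehicle is 2627 with an interval of 471 to 103800. Spp1 stood at 44.4, 3864, 14.0 and 353 CPM. Its 5 highest cells carried 49.6% of the UMIs in Vehicle-OVA and 89.8% in Ribavirin-OVA. The C1q macrophages of both OVA libraries held these transcripts at 3215 and 2718 CPM (Arg1), 2439 and 1800 CPM (Ccl24) and 2921 and 2898 CPM (Spp1), so the levels in Vcan and F13a1 cells and macrophages were alike in Vehicle-OVA and unlike in Ribavirin-OVA.

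The macrophage gene Mrc1, the mannose receptor, moved with them at 23.3, 513, 47.7 and 106 CPM. Leaving out every Vcan and F13a1 cell with an Mrc1 UMI kept 164, 83, 176 and 43 cells. The log2 ratios of Arg1 were then 5.66 and 1.57, those of Ccl24 5.12 and 3.27, and those of Spp1 5.21 and 4.31. Fn1 gave 1.94 and 1.49 and Chil3 1.93 and 1.11 in the same cells. All 5 genes thus stayed past 2-fold in both OVA pairs. Without groups 4 and 5, which were built from such genes, Arg1 gave 3.62 and 0.20, Ccl24 1.07 and 2.82, and Spp1 −0.38 and 1.49, so Spp1 was no longer higher under vehicle and Arg1 no longer past 2-fold under ribavirin. Of the 15 tested genes of the IL-4-responsive list, 9 were higher and 1 lower with OVA under vehicle. Under ribavirin 9 were higher and none lower. The medians were 1.26 and 1.07, beside 0.23 and 0.28 over all genes. Medians of the list were 2.30 and 1.82 in C1q macrophages, 1.22 and 0.68 in B cells, and 0.95 and 0.87 in T cells. They were 1.01 and 1.49 in the Cd209a dendritic cells, 0.58 and 0.73 in gated neutrophils, and 0.43 and 0.13 in nonclassical monocytes. Without the Mrc1-bearing cells the list (12 genes tested) gave 8 higher and none lower, and 5 higher and 3 lower, with medians of 1.24 and 0.33. In the remaining cells it gave 6 higher and none lower, and 3 higher and 1 lower, with medians of 0.92 and 0.06. The list was chosen with results of these data known.

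**Figure D3:**
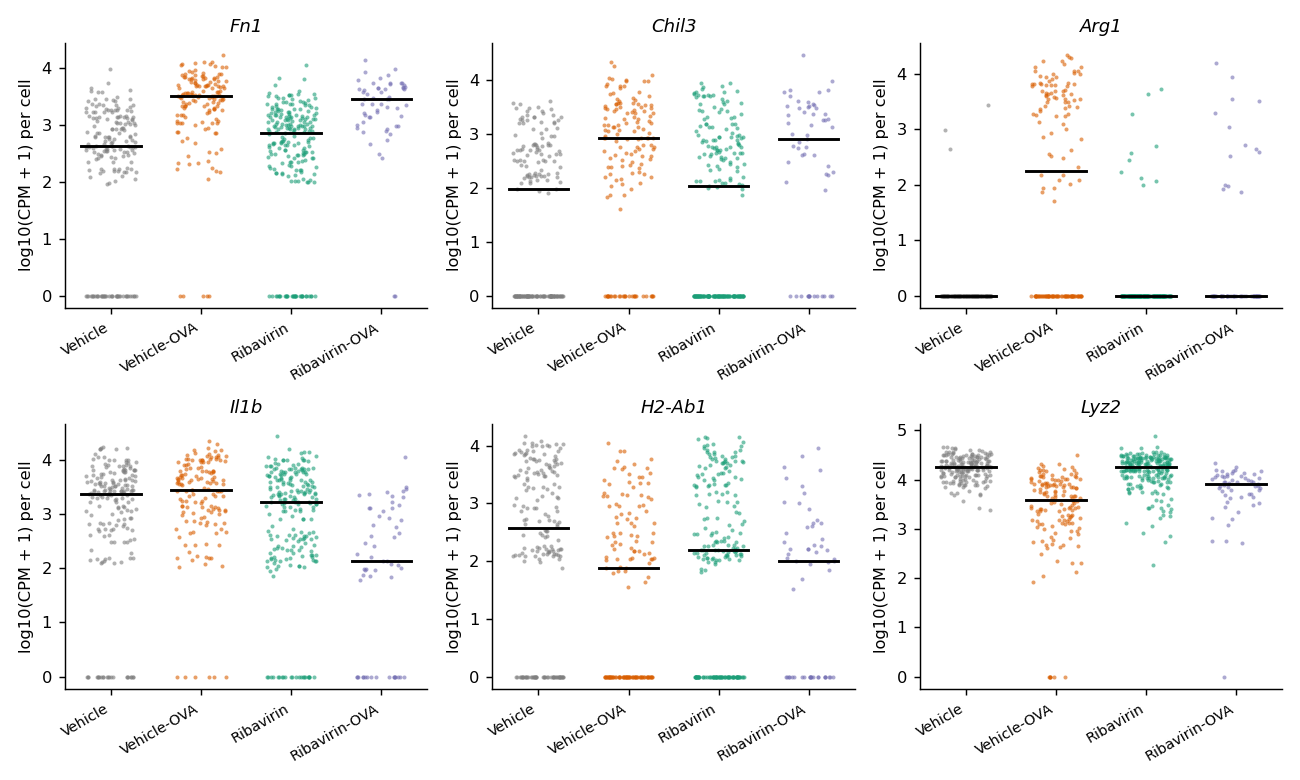
Level per cell as log10(CPM + 1) of 6 genes in every Vcan and F13a1 cell of the 4 libraries; 1 point is 1 cell and the black line is the median. Fn1 medians sit at 3125 and 2776 CPM in the OVA libraries and at 419 and 719 CPM in the others, and the Arg1 points are spread over part of the Vehicle-OVA cells.

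Antigen presentation genes went the other way. H2-Ab1, H2-Aa and H2-Eb1 encode the MHC class II chains, Cd74 the invariant chain that escorts them, and H2-DMa a subunit of the peptide loader. H2-Eb1 stood at 1750.3 CPM in Vehicle, 439 in Vehicle-OVA, 1210 in Ribavirin and 247 in Ribavirin-OVA. It was 3.99-fold lower with OVA under vehicle and 4.89-fold lower under ribavirin. H2-Ab1 stood at 2509, 868, 1868 and 511 CPM and Cd74 at 5417, 2046, 4362 and 1041. In every one of these genes both OVA libraries lay below both libraries without OVA. H2-DMa followed at 506, 167, 416 and 185 CPM. Few cells carried much of these transcripts in Ribavirin-OVA, where the 5 highest cells held 85.5% of the H2-Eb1 UMIs. The transcript of Ciita, the master coactivator of these genes, was sparse at 27.1, 23.3, 33.7 and 16.1 CPM, and its log2 ratios of −0.18 and −0.87 did not reach 2-fold. Over the dendritic-linked list, 10 and 11 of 14 tested genes were lower with OVA in the vehicle and ribavirin pairs and none was higher, with medians of −1.48 and −1.19. Among the remaining cells the log2 ratios of H2-Eb1 were −3.72 and −3.87 and those of Cd74 −2.89 and −3.20, and 9 and 11 of 13 listed genes were lower and 1 and none higher. Cells with at least 1 UMI of MHC class II made up 66.9%, 41.1%, 55.9% and 38.9% of thinned Vcan and F13a1 cells. The same list had medians of −1.37 and −0.98 in C1q macrophages, −1.36 and −0.86 in nonclassical monocytes, and 0.45 and 0.00 in B cells.

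The promoters of the class II genes are shown because these genes were lower together in both OVA pairs. The start-proximal 150 bases were taken from the RefSeq promoter table (GRCm38.p6) for 3 of the 5 genes looked for, and H2-Ab1 and Cd74 are named only. The letters searched were CCAAT on both strands (ATTGG on the other), the core of the Y box on which class II promoters are known to depend, and capitals mark each match. The motif was chosen after the values were seen. H2-Aa lies on the minus strand at chr17:34287824-34287973 and holds 1 match that begins 48 bases before the start. H2-Eb1 lies on the plus strand at chr17:34305717-34305866 and holds 2, at 59 and 35 bases before the start. The 2 windows of H2-DMa hold none. Of 32851 windows of this length, 24.5% held the letters, so a match describes the sequence and shows no binding.
H2-Aa: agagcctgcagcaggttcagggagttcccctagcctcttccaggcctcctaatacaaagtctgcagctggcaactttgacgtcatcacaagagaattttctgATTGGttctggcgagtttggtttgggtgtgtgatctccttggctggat
H2-Eb1: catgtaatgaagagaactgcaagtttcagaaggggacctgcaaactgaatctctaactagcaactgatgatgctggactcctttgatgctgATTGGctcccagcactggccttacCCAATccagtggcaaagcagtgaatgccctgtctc

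Inflammatory mediators were higher with OVA under vehicle and not under ribavirin, a difference between pairs that was not tested. Of 22 tested genes, 18 were higher and none lower with OVA under vehicle (median 2.48), while 1 was higher and 8 were lower under ribavirin (median −0.34). The list's medians in the same pairs were 1.64 and −0.19 in B cells, 1.56 and 0.08 in T cells, and 1.90 and 0.07 in gated neutrophils. They were 0.70 and −0.65 in C1q macrophages, 0.46 and −0.92 in nonclassical monocytes, and −0.09 and −0.57 in the Cd209a dendritic cells. The order was thus shared with lymphocytes. Without groups 4 and 5, which were built from such genes, 2 of 18 tested genes were higher and 2 lower under vehicle (median 0.25). None was higher and 8 were lower under ribavirin there (median −0.88), beside medians of 0.29 and 0.26 over all genes. Il1b, the pyrogenic cytokine IL-1β, stood at 3304 CPM in Vehicle, 4850 in Vehicle-OVA, 2961 in Ribavirin and 727 in Ribavirin-OVA, with per-cell medians of 2357, 2803, 1635 and 133 CPM. It was thus 1.47-fold higher (1.41 to 1.52) in one pair and 4.07-fold lower in the other. Among the remaining cells it was lower in both, at log2 ratios of −1.13 and −2.82. Cxcl2, a neutrophil attractant, stood at 526, 4019, 1082 and 742 CPM. In B cells Cxcl2 was at 60.3, 869, 165 and 75.9 CPM. The B cells of Vehicle-OVA were thus also the highest B cells for it, and the part of free RNA in the level of the Vcan and F13a1 cells was not tested. Il1a stood at 57.2, 519, 52.9 and 5.38 CPM, and Ptgs2, the inducible cyclooxygenase, at 216, 1595, 305 and 253 CPM. Il1rn, the IL-1 receptor antagonist, was likewise highest in Vehicle-OVA at 148, 1545, 225 and 177 CPM. The chemokine Ccl2, which recruits CCR2-bearing monocytes, had another order at 278, 144, 275 and 272 CPM.

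Set directly against each other, the OVA libraries differed in 200 genes that were higher (2.71%) and 408 that were lower (5.53%) under ribavirin, 608 in all (8.24%). Among the inflammatory mediators, 19 of 22 were lower in Ribavirin-OVA than in Vehicle-OVA and none was higher, with a median of −2.59 beside 0.08 over all genes. Without Mrc1-bearing cells 18 of 20 were lower (median −2.83), and without the 5% of cells highest in neutrophil markers 19 were (median −2.16). In the remaining cells 6 of 18 were lower (median −0.73), with 162 genes higher and 197 lower in all. The same list had medians of −1.53 in B cells, −1.21 in T cells, −0.98 in C1q macrophages and −1.72 in gated neutrophils. It was also −1.24 in nonclassical monocytes and −0.98 in the Cd209a dendritic cells, so the list was lower in Ribavirin-OVA in every population gated, lymphocytes included. Il1b stood at 477 CPM in B cells of Vehicle-OVA and at 105 in those of Ribavirin-OVA, and how much of the difference in Vcan and F13a1 cells is free RNA was not tested. Pattern recognition receptors had 11 of 20 genes lower and none higher in this comparison (median −1.02). They included Cd14, the coreceptor for lipopolysaccharide, at 928, 1650.5, 996 and 342 CPM, and Clec4d and Clec4n, C-type lectins for fungal and mycobacterial glycans. Clec4n stood at 142, 364, 112 and 35.8 CPM, highest in Vehicle-OVA and lowest in Ribavirin-OVA. Without groups 4 and 5 its log2 ratios with OVA were −2.00 and −2.01, and 4 of 18 receptors were lower under ribavirin than under vehicle (median −0.58). Cell cycle genes went the other way, with 7 of 12 higher and 1 lower in Ribavirin-OVA than in Vehicle-OVA (median 1.31). In the other gated populations that list's median ran from −0.16 in nonclassical monocytes to 0.93 in gated neutrophils.

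**Figure D4:**
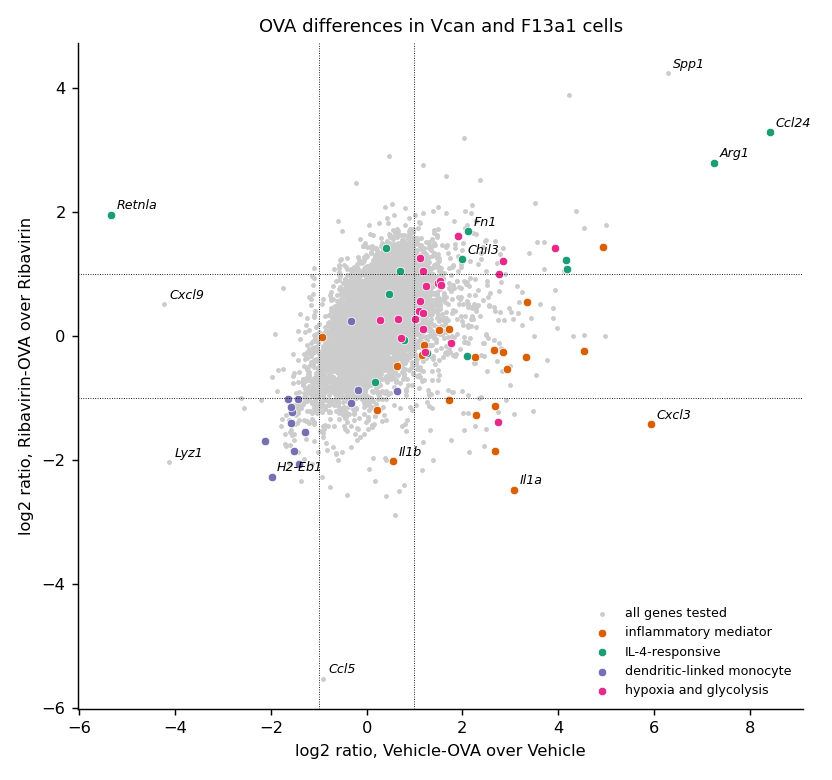
Log2 ratio of every tested gene between Vehicle-OVA and Vehicle (horizontal) and between Ribavirin-OVA and Ribavirin (vertical) in Vcan and F13a1 cells; dotted lines mark 2-fold and 4 gene lists are coloured. Arg1, Ccl24 and Spp1 lie far to the upper right, H2-Eb1 to the lower left, and Cxcl3 and Il1a to the lower right.

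Hypoxia and glycolysis genes were higher with OVA mainly under vehicle. Of 21 tested, 18 were higher and none lower in that pair (median 1.21), and 5 were higher and 1 lower under ribavirin (median 0.56). Hif1a, the oxygen-sensing transcription factor, stood at 316, 726, 345 and 373 CPM, Ldha, lactate dehydrogenase A, at 295, 633, 273 and 362, and the glucose carrier Slc2a1 at 40.6, 150.1, 52.9 and 48.4. Vehicle-OVA was the highest library for each of them. In the 452 remaining cells 2 of 19 were higher and none lower under vehicle (median 0.16), and 2 higher and 2 lower under ribavirin (median 0.22). Since the groups were built from such genes, those counts are descriptions. Hif1a stood at 952 CPM in group 4 and at 193 in group 5, beside 462, 189 and 275 in groups 1 to 3. The list's medians were 1.02 and 0.49 in C1q macrophages and 0.99 and 0.58 in B cells. Matrix and remodelling genes had 10 of 17 higher under vehicle and 2 higher and 1 lower under ribavirin, with medians of 1.81 and 0.41. Tgfbi, a matrix protein induced by TGF-β, stood at 832, 2937, 808 and 1075 CPM, and Mmp14, a membrane-bound collagenase, at 72.2, 480.1, 49.4 and 69.9. With groups 4 and 5 left out the list gave 4 of 15 higher and 1 lower, and 2 higher and 4 lower, and Mmp14 was lower with OVA in both pairs (−2.59 and −2.34). Mmp8 was called in both OVA pairs at log2 ratios of 1.91 and 1.29, and at 3.04 and 1.22 without those groups.

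Genes linked to granulocyte-like monocytes had 9 of 11 higher and none lower with OVA under vehicle (median 2.27). Under ribavirin 4 were higher and 2 lower (median 0.63). The list's medians were 1.61 and 0.27 in T cells, 1.15 and 0.11 in C1q macrophages, and 0.99 and −1.18 in B cells. They were 0.88 and 0.46 in gated neutrophils, 0.76 and 0.31 in nonclassical monocytes, and 0.50 and −0.09 in the Cd209a dendritic cells. S100a8 and S100a9, the calprotectin subunits, were carried by few cells. The 5 highest cells of Vehicle-OVA held 81.0% of its S100a8 UMIs and 75.5% of its S100a9 UMIs. S100a8 stood at 416, 2001, 287 and 211 CPM in Vcan and F13a1 cells and at 123, 405, 433 and 119 in B cells. Without the 5% of cells highest in neutrophil markers its log2 ratios with OVA were 1.35 and −0.20. In the remaining cells they were 0.17 and −0.49.

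Lysozyme and several identity genes were lower with OVA. Lyz2, the abundant myeloid lysozyme, stood at 19296 CPM in Vehicle, 5264 in Vehicle-OVA, 17788 in Ribavirin and 9575 in Ribavirin-OVA. It was 3.67-fold lower with OVA under vehicle and 1.86-fold lower under ribavirin. Among the remaining cells its log2 ratios were −0.97 and −0.84, just under 2-fold. Of 26 identity genes, 2 were higher and 5 lower in the vehicle pair and 2 higher and 4 lower in the ribavirin pair, with medians of −0.19 and −0.20. The genes that were higher in both pairs were Fn1 and Chil3. Ifitm3, an interferon-induced restriction factor against viral entry, stood at 5463, 1852, 5748 and 1889 CPM. Both OVA libraries lay far below the others, at log2 ratios of −1.56 and −1.60, and it was lower with OVA in B cells too, at 290.2, 99.2, 290.6 and 79.8 CPM. Of 25 interferon response genes, 3 were higher and 5 lower under vehicle and none was higher and 10 lower under ribavirin. With groups 4 and 5 left out, 14 and 10 were lower and none higher (medians −1.23 and −0.79). Gbp2, a guanylate-binding protein, was lower in both pairs at 484, 216, 405 and 192 CPM.

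The smallest of the 4 differences was that of ribavirin without OVA. Between Ribavirin and Vehicle 74 genes (1%) were at least 2-fold higher and 25 (0.339%) lower, 99 in all (1.34%). The genes with the largest ratios in both ribavirin pairs were Obp1b, Obp1a, Obp2a, Gm14743 and Mup4, which include odorant-binding and major urinary proteins secreted by nasal glands. Obp1a stood at 48.9, 6.74, 642 and 310.0 CPM in Vcan and F13a1 cells. In B cells it stood at 74.8, 15.7, 938 and 413 CPM, so the Vcan and F13a1 cells held no more of it than lymphocytes of the same library. Bpifa1, an airway surface protein named among the genes higher in both OVA pairs, stood at 14.3, 393, 48.3 and 210 CPM, beside 12.2, 36.0, 90.9 and 296 in B cells. Inflammatory mediators had 4 of 22 higher and none lower between Ribavirin and Vehicle, and the dendritic-linked, pattern recognition, hypoxia and identity lists had none of either. Of 12 cell cycle genes 5 were higher and none lower (median 0.59), beside 1% of all genes higher. IL-4-responsive genes had 3 of 15 higher and 1 lower. Il23a, F11r, Spp1, Tmem119 and Paox were the 5 lowest over both ribavirin pairs. Il23a was seen as 11 UMIs in 1 cell of Vehicle, 67 UMIs in Vehicle-OVA and none in either ribavirin library.

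**Figure D5:**
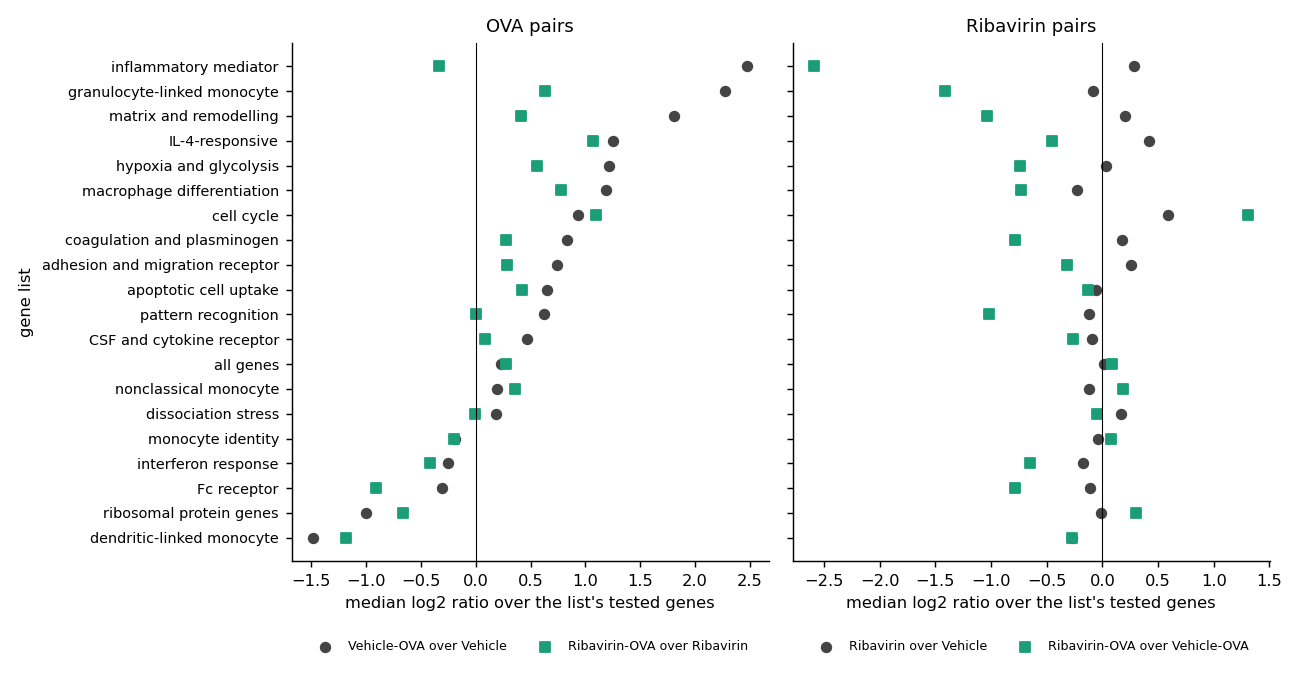
Median log2 ratio over the tested genes of each list, for the 2 OVA pairs (left) and the 2 ribavirin pairs (right); the row for all genes is the background. Inflammatory mediators lie at 2.48 and −0.34 on the left and at −2.59 for Ribavirin-OVA over Vehicle-OVA on the right, and the dendritic-linked list lies at −1.48 and −1.19 on the left.

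Genes of macrophage maturation and of several surface functions completed the comparison. Their counts stand beside 10.6% of all genes higher with OVA under vehicle and 9.52% under ribavirin, and a list near those shares is no result about the list. Macrophage differentiation genes had 11 of 19 higher and 2 lower with OVA under vehicle (median 1.19) and 7 higher and none lower under ribavirin (median 0.78). Without Mrc1-bearing cells 17 genes were tested, of which 6 were higher and 3 lower, and 2 higher and 2 lower. In the remaining cells the counts were 1 and 1, and 2 and 2, and the median under vehicle turned to −0.072. Of 18 apoptotic cell uptake genes, 7 and 5 were higher and none lower (medians 0.65 and 0.42). Their medians were 0.58 and 0.46 in B cells, 0.50 and 0.43 in C1q macrophages, and 0.40 and 0.36 in T cells. They were 0.60 and 0.26 in the Cd209a dendritic cells, 0.38 and 0.36 in nonclassical monocytes, and 0.15 and 0.42 in gated neutrophils. Abca1 of this list stood at 706 CPM in group 4, beside 89.1, 12.8, 17.4 and 11.0 in groups 1, 2, 3 and 5. Of 17 adhesion and migration receptors, 5 were higher and 1 lower under vehicle and none higher and 1 lower under ribavirin, and coagulation and plasminogen genes gave 5 higher and 1 lower, and none and 1, of 12. The adhesion list had medians of 0.74 and 0.28, beside 0.68 and 0.44 in B cells. The coagulation list had 0.83 and 0.28, beside 0.84 and 0.13 in B cells. Fc receptors (6 tested) gave none higher in either pair and 1 lower under ribavirin. Colony-stimulating factor and cytokine receptors gave 5 higher of 26 under vehicle, and 1 higher and 3 lower under ribavirin. Of the 11 nonclassical genes 2 and 1 were higher, and of 13 genes that the study itself names 1 and 2 were higher, a list that is not independent of these samples. Both are near the shares over all genes. Dissociation stress genes (19 tested) had medians of 0.19 and 0.00, close to those of all genes. Cell cycle genes gave 4 and 6 of 12 higher, and how many cells carried them is not given here. Top2a, which untangles DNA at division, stood at 2.26, 14.1, 28.5 and 131 CPM. By group it stood at 141 CPM in group 3, beside 1.71, 5.33, 1.79 and 0 in groups 1, 2, 4 and 5.

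Single Vcan and F13a1 cells carried these genes in different combinations. Of thinned Vehicle-OVA cells, 22.7% held both Arg1 and Ccl24 UMIs, 27.0% held Arg1 alone and 4.26% Ccl24 alone, and 23.4% held Arg1 together with MHC class II. In Ribavirin-OVA 3.70% held both Arg1 and Ccl24 (0.452 to 12.7). Fn1 and Chil3 were found together in 18.8%, 58.9%, 29.6% and 53.7% of thinned cells.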

How the data were processed

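Single-cell RNA was sequenced from 4 libraries of nasal CD45+ cells. The authors deposited 1 filtered matrix of raw UMI counts per library, made with Cell Ranger 5.0.0 against mm10 per the submitters' processing notes. The annotation release is not given in the sources used here. Each matrix lists 27998 genes, and 121 symbols shared by several identifiers were kept apart and matched to no list. Cells with at least 500 UMIs, 200 genes and under 10% mitochondrial UMIs were kept. Library totals ran from 91742940 to 171873110 UMIs, and the Vcan and F13a1 cells gave 558109 to 1719439. Scrublet marked 0.612% to 5.53% of cells per library as doublets. Marked cells were kept and removed in an alternative.

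Counts were summed over the Vcan and F13a1 cells of a library and scaled to CPM. Genes with at least 50 UMIs over all Vcan and F13a1 cells were compared as log2 ratios with 5 CPM added, and a ratio past 2-fold was called. With 1 library per group, no test between groups was possible. Comparisons with other cell populations are paired within 4 libraries, where the smallest two-sided exact p is 0.125, and no test was run on them. Intervals (exact Poisson, binomial or conditional binomial, 95%) cover counting error only. Shares of cells with a UMI were read after thinning to 2000 UMIs. Cells were clustered by the Leiden method at resolution 0.5, with 15 neighbours, 20 components and 1500 variable genes. The tools were Python 3.11.15, numpy 2.4.6, scipy 1.17.1, scanpy 1.11.5, scikit-learn 1.9.0 and leidenalg 0.10.2, and the ratio code was tested on simulated data. Named genes were the 10 highest and 10 lowest over both OVA pairs, the 5 and 5 over both ribavirin pairs, the 3 and 3 of single pairs, the 10 with the largest fold over each of 3 other populations, and genes of 28 lists (450 genes, 10 not found). The members and lists were chosen with earlier results of these data known. Alternatives changed the rule, filters, doublets, pseudocount and scaling. Those without Mrc1-bearing cells, without the 5% of cells highest in neutrophil markers, or without groups with more markers of another cell type than of classical monocytes among their 10 leading genes were chosen after seeing the data. Some genes that the naming rule picks are not reported here.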

Additional observations from a re-analysis of the deposited data

Results flagged for a closer look

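For 14 genes named here, the level in Vcan and F13a1 cells was at least 2-fold different with OVA in opposite directions under vehicle and under ribavirin. The difference was not tested, since each group is 1 library. Cytokine and acute-phase genes make up the first set, each given as the log2 ratio under vehicle and then under ribavirin. Cxcl3 gave 5.94 and −1.42, Il1a 3.07 and −2.48, Il6 2.28 and −1.27, and Ccl4 1.71 and −1.03. Saa3 gave 2.68 and −1.85 and S100a9 2.27 and −1.45. Receptors of microbial ligands make up the second set. Clec4d gave 1.17 and −2.17, Clec4e 1.26 and −1.07, Clec4n 1.32 and −1.52, and Fpr1 2.04 and −1.52. The cytokine receptor genes Il1r2 (1.31 and −1.14) and Il7r (2.74 and −1.22) and the growth factor gene Vegfa (2.75 and −1.39) had the same order. Retnla alone ran the other way, at −5.33 and 1.95, and its 294 UMIs in Vehicle came from 1 cell. Some of these opposite directions depended on few cells. Without the 5% of cells highest in neutrophil markers, S100a9 under ribavirin (−0.94), Ccl4 in both pairs (0.93 and −0.96), and Clec4d (0.84) and Clec4e (0.83) under vehicle were below 2-fold. Without Mrc1-bearing cells Clec4d (0.78) and Clec4n (0.81) were below 2-fold under vehicle. Without groups 4 and 5 the ratio under vehicle was negative for Il1a (−0.62), Clec4d (−0.53), Clec4n (−2.00) and Vegfa (−0.80) and under 2-fold for S100a9 (0.05), Saa3 (0.42), Il6 (0.53), Ccl4 (0.01), Clec4e (0.04) and Il1r2 (0.73). Cxcl3 (3.77 and −1.46) still ran in opposite directions past 2-fold there, and Retnla, Fpr1 and Il7r had too few UMIs to be compared.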

How the results depend on the processing

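No paired analysis was possible between groups because each is 1 library, so the groups share fewer than 2 replicate numbers. The share of Vcan and F13a1 cells depended most on the counting. For Vehicle-OVA over Vehicle (log2) it was 0.56 with at least 5 UMIs of Vcan and F13a1, 0.92 in thinned cells, 0.87 without gated neutrophils in the denominator, 0.94 per Ace and Adgre4 monocyte, −0.43 without Mrc1-bearing cells and −0.94 without groups 4 and 5. For Ribavirin-OVA over Ribavirin it turned to 0.97 in thinned cells. Ribavirin over Vehicle gave 0.22 thinned and 0.099 per Ace and Adgre4 monocyte, and Ribavirin-OVA over Vehicle-OVA gave 0.27 thinned, −0.98 without gated neutrophils, −1.53 per Ace and Adgre4 monocyte and 0.62 without groups 4 and 5. Genes past 2-fold numbered 498, 305, 26 and 310 with 20 CPM added and 551, 414, 36 and 282 with at least 200 UMIs per gene (OVA under vehicle, OVA under ribavirin, ribavirin alone, ribavirin under OVA). Ribavirin over Vehicle also gave 240 with 1 CPM added, 151 with at least 20 UMIs per gene and 154 with the 5-UMI rule. With the median set to 0, ribavirin under OVA gave 151 higher and 475 lower, and without groups 4 and 5 it gave 359 in all. Single genes were tallied over a selected set of ratios, not over every gene named here. Ratios outside that set also turned direction, such as Il1b under vehicle and Mmp14 under ribavirin without groups 4 and 5. Within the set, over all settings, 4196 stayed within 0.5 (log2) of their value, 492 moved and 32 turned direction. With the 5-UMI rule these were Cd209a under vehicle (0.57) and Abca1 (−0.26) and Il7r (0.25) under ribavirin, and without Mrc1-bearing cells, under ribavirin, Cd209a (0.64), Hbegf (−1.55), Nos2 (−1.61), Abca1 (−0.70) and Egln3 (−0.23). Without groups 4 and 5 they were, under vehicle, Spp1 (−0.38), Gatm (−0.99), Il1a (−0.62), Itgax (−0.97), Cd209a (0.37), Lgmn (−0.072), Fabp5 (−0.60), Tgm2 (−0.79), Ifit1 (−0.70), Ifit2 (−2.28), Rsad2 (−0.81), Tnf (−0.64), Clec4d (−0.53), Clec4n (−2.00), Cxcr4 (−0.14), Mmp14 (−2.59), Timp1 (−0.30), Vegfa (−0.80), Axl (−1.45), Abca1 (−1.29), Hif1a (−0.29) and Slc2a1 (−0.028), and under ribavirin Mrc1 (−0.47) and Abca1 (−1.29). The macrophage differentiation median under vehicle turned to −0.072 there. Of the other list medians, 500 stayed within 0.5 and 17 moved. The cause was not tested. With 57 cells, Ribavirin-OVA limits every comparison it enters.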
